A study of Mus musculus with 4 samples.

Results

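Transforming growth factor beta (TGF-beta) genes were described in the infarcted hearts of 4 male mice, measured on Clariom S Mouse arrays. The 10 genes cover the ligands Tgfb1, Tgfb2 and Tgfb3, the receptors Tgfbr1, Tgfbr2 and Tgfbr3, the latency proteins Ltbp1 and Ltbp2, and the repressors Skil and Smad7. They were chosen by symbol from the 19505 different gene symbols of the platform annotation, and each of the 10 had 1 probe, the summary of its short oligonucleotides. The 2 control hearts (Ctrl-MI) carried Tcf21iCre and Tomato, and the 2 transgenic hearts (TTg-MI) carried Tcf21iCre, Tomato and MGTH2A. Both groups therefore shared the Cre, driven by the fibroblast gene Tcf21, and the reporter, and only TTg-MI had the transgene. MGTH2A is, as background, a polycistronic transgene for 4 heart transcription factors, Mef2c together with Gata4, Tbx5 and also Hand2. The left coronary artery was ligated at 8 weeks of age and hearts were taken 3 months later. The comparison asks what fibroblast reprogramming does to the heart long after an infarct. The series' design text calls the 2 hearts of each group independent biological replicates. Mice whose ejection fraction stayed high shortly after surgery had been removed, no uninfarcted heart was analysed here, and the RNA came from the whole heart while the Cre driver is a fibroblast gene.

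TGF-beta is secreted in a latent form, in which its own propeptide wraps the ligand and is anchored to the matrix by latent TGF-beta binding proteins. Once released, the ligand assembles the type 2 receptor (Tgfbr2) and the type 1 receptor (Tgfbr1), a pair of kinases that phosphorylate Smad2 and Smad3, which join Smad4 and enter the nucleus. Skil (SnoN) holds Smad complexes in a repressed state, and Smad7 blocks the activated type 1 receptor, so both are brakes on the pathway. In the infarcted heart this pathway is known for turning fibroblasts into matrix-producing myofibroblasts and for building the scar.

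Promoter sequences are shown for the ligand with the largest difference and for both latency proteins, whose differences ran in opposite directions. RefSeq held promoter entries for 6 of the 10 genes, 8 entries in all, on build GRCm38.p6. The stretches below lie before the annotated start of transcription, 5′ to 3′ on the gene's own strand. Capitals mark the SMAD box (CAGAC), the cyclic AMP response element (TGACGTCA) and the TATA box (TATAAA), each searched on both strands.
Tgfb2, chr1:186705990-186706239, minus strand: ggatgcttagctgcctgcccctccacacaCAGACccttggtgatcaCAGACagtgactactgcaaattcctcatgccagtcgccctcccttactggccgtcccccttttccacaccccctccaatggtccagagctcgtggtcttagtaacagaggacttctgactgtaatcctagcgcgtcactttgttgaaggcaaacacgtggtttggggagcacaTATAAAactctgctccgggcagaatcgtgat
Ltbp2, chr12:84876559-84876741, minus strand: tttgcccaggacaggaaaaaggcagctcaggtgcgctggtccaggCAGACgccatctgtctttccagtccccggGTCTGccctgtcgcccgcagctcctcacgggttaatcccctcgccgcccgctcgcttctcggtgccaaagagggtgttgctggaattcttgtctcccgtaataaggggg
Ltbp1, chr17:75005279-75005479, plus strand: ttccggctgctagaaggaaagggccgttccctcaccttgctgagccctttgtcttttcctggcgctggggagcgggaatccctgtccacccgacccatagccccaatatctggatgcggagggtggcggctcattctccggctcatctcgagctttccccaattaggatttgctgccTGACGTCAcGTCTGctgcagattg
For Ltbp2 and Ltbp1 the last 67 and 49 bases before the annotated start are left out, because the RefSeq gene begins that much further upstream. The Tgfb2 stretch lies inside the span of its RefSeq gene, which has a further start upstream.

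A SMAD box stood in the 250 bases before at least 1 start of 5 of the 6 genes: Tgfb2, Tgfbr1, Tgfbr2, Ltbp1 and Ltbp2, but not Tgfb1. The same 5 letters stood in 42.2% of all 32851 promoter entries of that length. That share counts entries and not genes, and a gene with more than 1 entry can match more easily. For Tgfbr1 the box stood before 1 start and not before another. The cyclic AMP response element was found for Ltbp1 alone among the 6, 73 bases before the start, and in 1.55% of all entries. The TATA box was found for Tgfb2 alone, 31 bases before the start, and in 12.4% of all entries. An AP-1 site (TGANTCA, 6.75% of all entries) stood in none of the 8 entries, and a GATA site (GATAA, 22.6%) in that of Ltbp2, in the part left out above. The TATA box was added to the search after the sequences were seen. These matches describe the letters and are not binding data.

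All values are log2 expression values, so that a difference of 1 is a 2-fold difference. Each difference subtracts the Ctrl-MI mean from that of TTg-MI. The genes were lower in TTg-MI hearts in most cases, with no member past the test across the whole array. For 8 of the 10 genes the TTg-MI hearts were both lower than either Ctrl-MI heart, against 18.7% of all 22206 probes. Both were higher for 1 gene, Ltbp1, against 19.4% of all probes, and the groups overlapped for Tgfbr3. The median difference of the 10 genes was -0.72, against 0.01 for all probes. After quantile normalization the arrays of Tgfb1 and Tgfbr2 overlapped as well, which left 6 genes with TTg-MI below.

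In limma with Benjamini-Hochberg adjustment over all probes, 0 of the 10 genes passed 0.05, against 0.00450% of all probes (1 probe), and their adjusted p ran from 0.530 to 0.993. At an unadjusted limma p under 0.05 there were 5 genes, all lower (Tgfb2, Tgfb3, Tgfbr1, Ltbp2 and Skil), where 5.07% of all probes were lower at that level and 8.25% differed in either direction. In an unmoderated linear model that count was 1, where 2.78% of all probes were lower at that level. When single arrays were left out the median difference of the 10 genes ran from -0.98 to -0.51. Without Ctrl-MI replicate 2 the array-wide test called 332 probes instead of 1, and Tgfb2 (adjusted p = 0.0329) and Skil (adjusted p = 0.0339) were among them. For 1 gene, exact permutation of 2 arrays against 2 gives a two-sided p of 0.33 at best. The 10 genes come from the same 4 arrays and are not independent of each other.

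**Figure D1:**
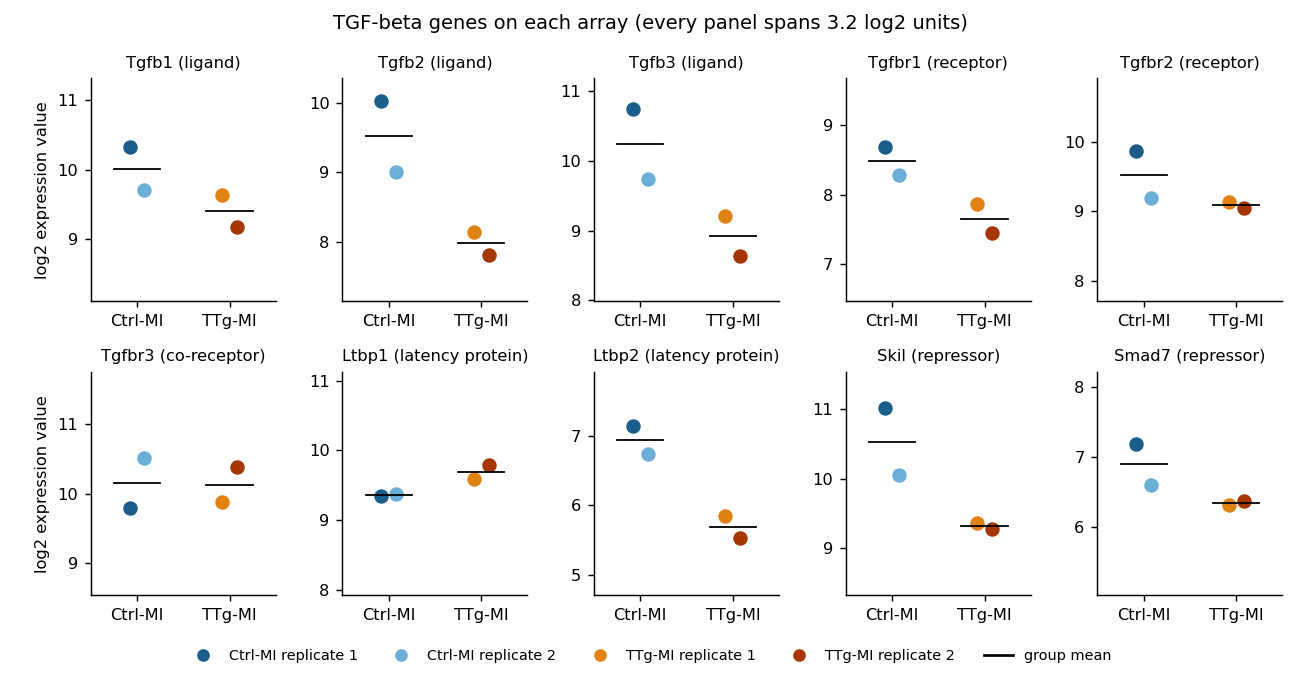
Log2 expression value of each of the 10 genes on each array, with points for single hearts and bars for the group means; all panels span the same range. Both TTg-MI points lie below both Ctrl-MI points for all genes except Ltbp1, where they lie above, and Tgfbr3, where they overlap.

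The 3 ligand genes were all lower in TTg-MI, Tgfb2 by the widest margin. Tgfb2 encodes an isoform prominent in heart development and valve formation. It stood at 10.03 and 9.01 on the Ctrl-MI arrays and at 8.15 and 7.81 on the TTg-MI arrays. Ctrl-MI replicate 1 was the highest and the groups were separated by a gap of 0.86. The difference was -1.54 (SE 0.35, 95% interval -2.42 to -0.66, limma adjusted p = 0.546), which is 2.91-fold.

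Tgfb3, the isoform associated with palate fusion and scar remodelling, stood at 10.75 and 9.74 in Ctrl-MI and at 9.21 and 8.64 in TTg-MI. The order of the arrays was that of Tgfb2, with a gap of 0.52 between the groups. Its difference was -1.32 (SE 0.38, 95% interval -2.26 to -0.37, limma adjusted p = 0.546). Without Ctrl-MI replicate 1 the difference was -0.81.

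Tgfb1, the isoform made by macrophages, platelets and fibroblasts of the healing infarct, stood at 10.32 and 9.71 in Ctrl-MI and at 9.63 and 9.17 in TTg-MI. The groups came within 0.07 of each other, less than the 0.62 between the Ctrl-MI hearts. The difference was -0.61 (SE 0.27, 95% interval -1.30 to 0.07, limma adjusted p = 0.630). It was -0.30 when Ctrl-MI replicate 1 was left out, -0.92 when Ctrl-MI replicate 2 was, and -0.38 when TTg-MI replicate 2 was.

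The signalling receptors were lower by less than Tgfb2 and Tgfb3. Tgfbr1, the type 1 receptor kinase that phosphorylates the Smads, stood at 8.68 and 8.29 in Ctrl-MI and at 7.86 and 7.44 in TTg-MI. The gap between the groups, 0.42, was about as wide as the distances of 0.40 and 0.42 between the hearts of each group. The difference was -0.83 (SE 0.23, 95% interval -1.40 to -0.26, limma adjusted p = 0.546), which is 1.78-fold.

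Tgfbr2, the receptor kinase that binds the ligand first, stood at 9.86 and 9.19 in Ctrl-MI and at 9.13 and 9.05 in TTg-MI. Ctrl-MI replicate 1 stood apart, and the other 3 arrays lay close together. The difference was -0.44 (SE 0.25, 95% interval -1.06 to 0.19, limma adjusted p = 0.717), and -0.10 without Ctrl-MI replicate 1 against -0.77 without Ctrl-MI replicate 2.

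Tgfbr3 (betaglycan), a co-receptor that presents TGF-beta 2 to the kinases, stood at 9.80 and 10.52 in Ctrl-MI and at 9.88 and 10.39 in TTg-MI. Each group held a lower and a higher heart, and the groups overlapped. Its difference was -0.03 (SE 0.30, 95% interval -0.78 to 0.72, limma adjusted p = 0.993), and it turned to 0.021 after quantile normalization. It was 0.33 when Ctrl-MI replicate 2 was left out and 0.23 when TTg-MI replicate 1 was, so that its direction is not settled.

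The latency proteins went apart. Ltbp2, a matrix protein of the family that does not bind latent TGF-beta itself and is known as a fibroblast product of the scar, stood at 7.14 and 6.74 in Ctrl-MI and at 5.84 and 5.53 in TTg-MI. The gap of 0.90 was wider than the distance between the hearts of either group. Ltbp2 differed by -1.25 (SE 0.21, 95% interval -1.78 to -0.72), a 2.38-fold difference, and had the smallest limma adjusted p of the 10 genes, 0.530. With single arrays left out its difference ran from -1.45 to -1.05, in fits that reuse the same hearts. Its TTg-MI values lay not far above the lower quartiles of those arrays (5.48 and 5.47), near which a drop can be understated.

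Ltbp1, which anchors latent TGF-beta to the matrix, was the only one of the 10 with a higher TTg-MI mean. It stood at 9.34 and 9.37 in Ctrl-MI and at 9.59 and 9.79 in TTg-MI. The Ctrl-MI hearts lay within 0.03 of each other, and both TTg-MI hearts lay above them. The difference was 0.34 (SE 0.16, 95% interval -0.06 to 0.73, limma adjusted p = 0.645). It ran from 0.24 to 0.44 when single arrays were left out, which cannot turn its sign because the groups do not overlap. After quantile normalization it was 0.37.

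Both repressors were lower, although neither passed the array-wide test. Skil, itself induced by TGF-beta as well as repressing it, stood at 11.01 and 10.05 in Ctrl-MI and at 9.37 and 9.28 in TTg-MI. The TTg-MI hearts lay close together and the Ctrl-MI hearts 0.95 apart. The difference was -1.21 (SE 0.32, 95% interval -2.01 to -0.40, limma adjusted p = 0.546), which is 2.31-fold, and -0.73 without Ctrl-MI replicate 1.

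Smad7, the inhibitory Smad, stood at 7.19 and 6.60 in Ctrl-MI and at 6.31 and 6.36 in TTg-MI. The TTg-MI hearts differed by 0.05 and lay 0.24 below the nearer Ctrl-MI heart. The difference was -0.56 (SE 0.23, 95% interval -1.13 to 0.02, limma adjusted p = 0.609). It was -0.26 when Ctrl-MI replicate 1 was left out and -0.85 when Ctrl-MI replicate 2 was.

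**Figure D2:**
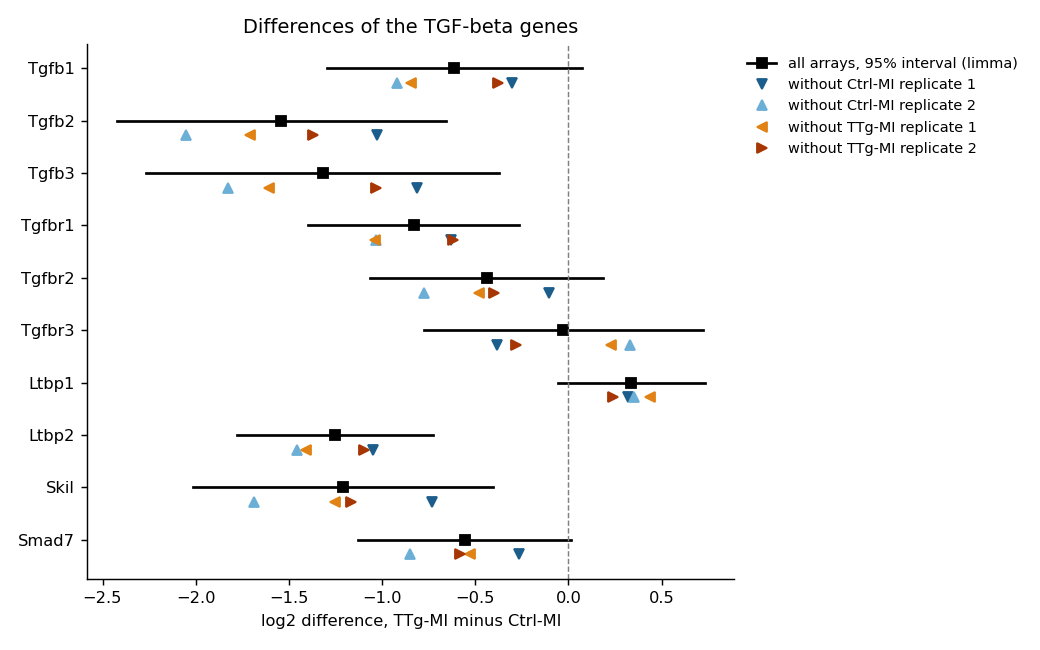
Log2 difference (TTg-MI minus Ctrl-MI) of each gene with its 95% interval from limma (squares and lines), and the difference when each array is left out (triangles). The intervals of Tgfb2, Tgfb3, Tgfbr1, Ltbp2 and Skil lie below 0, and only Tgfbr3 has triangles on both sides of 0.

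The arrays also differed within groups. Ctrl-MI replicate 1 was the highest and TTg-MI replicate 2 the lowest array for 7 of the 10 genes, against 11.5% of all probes. Leaving out Ctrl-MI replicate 1 brought the median difference of the 10 genes to -0.51, and leaving out Ctrl-MI replicate 2 brought it to -0.98. Of the 10 genes, Ltbp1, Ltbp2, Tgfb2 and Tgfbr1 had differences that moved by no more than 1.5 times in each of the 4 fits that left out 1 array.

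Differences between genes of 1 role were compared as the log2 ratio of both probes on each array, where only the change between groups can be read. The Tgfb2 to Tgfb1 ratio was lower in TTg-MI by a difference of -0.93, from -0.50 ± 0.29 to -1.42 ± 0.09 (SD, n = 2 each, exact two-sided permutation p = 0.33), and the Tgfb3 to Tgfb1 ratio by a difference of -0.71. The Ltbp2 to Ltbp1 ratio had the widest change, from -2.41 ± 0.31 to -4.00 ± 0.36 (SD, n = 2 each, exact permutation p = 0.33), a difference of -1.59. The Skil to Smad7 ratio differed by -0.65 and the Tgfbr1 to Tgfbr2 ratio by -0.39. In 6 of the 8 pairs compared the groups did not overlap, the exceptions being Tgfbr1 and Tgfbr2 set against Tgfbr3. Of single probes, 18.7% had TTg-MI below without overlap and 19.4% above, and no such share was computed for other pairs. Several pairs share a gene, so they are not separate comparisons. The value of 0.33 is the smallest p that 2 arrays against 2 allow, and 0.444 after Benjamini-Hochberg adjustment over the 8 pairs.

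The other genes of the pathway were taken from 5 lists, of which 62 of 66 genes were measured. Of these, 0 passed limma over all probes, and the counts below are at an unadjusted limma p under 0.05 (5.07% of all probes lower, 3.18% higher). In an unmoderated linear model, also counted below, 1241 of all 22206 probes were at that level in either direction. The lists were written with earlier results of these data known.

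Among 15 transducers of the signal, 1 was lower and 1 higher at that level, with a median difference of -0.21. Ski, a co-repressor related to Skil, was at 10.43 and 10.31 in Ctrl-MI and at 10.04 and 9.84 in TTg-MI (difference -0.43, SE 0.16). Traf6, a ubiquitin ligase that links the receptors to kinase cascades, was at 7.50 and 7.83 in Ctrl-MI and at 8.06 and 8.18 in TTg-MI (0.46, SE 0.18). Smad6, the inhibitory Smad of the BMP branch, differed by -0.64 (SE 0.29) and Tab1, a partner of the kinase Tak1, by 0.41 (SE 0.19), neither at that level. Without Ctrl-MI replicate 1 Smad6 differed by -0.25, Traf6 by 0.29 and Tab1 by 0.21, and the median was -0.11. With Ctrl-MI replicate 2 left out the median was -0.06. With a filter on dim probes, with a trended robust prior and in an unmoderated linear model 0 genes were at that level. In these settings 5.69%, 4.61% and 2.78% of all probes tested were lower. The signal carriers Smad2, Smad3 and Smad4, named after their values were seen, had overlapping groups, with differences of -0.08, -0.19 and 0.04.

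Of 11 measured genes of latency and activation, 3 were lower and 1 higher at that level, with a median of -0.44. Thbs1, which encodes thrombospondin 1, an activator of latent TGF-beta, was at 11.36 and 9.52 in Ctrl-MI and at 7.69 and 8.11 in TTg-MI (-2.54, SE 0.58). Lrrc32 (GARP), which tethers latent TGF-beta to cell surfaces, differed by -0.79 (SE 0.21), and Ltbp4, a further latency protein of elastic tissue, by -1.19 (SE 0.37). Itgb6, a subunit of the integrin alpha v beta 6 that releases the ligand in epithelia, went the other way, at 9.43 and 10.05 in Ctrl-MI and at 11.26 and 10.64 in TTg-MI (1.21, SE 0.30). Without Ctrl-MI replicate 1 the differences of Thbs1 and Ltbp4 were -1.62 and -0.62, and the median was -0.17. With Ctrl-MI replicate 2 left out the median was -0.63. In an unmoderated linear model 0 genes were at that level.

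Of 19 measured genes that TGF-beta is known to induce, 10 were lower and 1 higher at that level, with a median of -1.37. For 14 the TTg-MI hearts were both lower than either Ctrl-MI heart, against 18.7% of all probes. For 1 both were higher, against 19.4% of all probes. Eln (elastin) stood at 10.80 and 10.36 in Ctrl-MI and at 9.30 and 9.13 in TTg-MI (-1.37, SE 0.20). Lox, the enzyme that cross-links collagen and elastin, differed by -1.79 (SE 0.36) and Comp, a cartilage matrix protein of the scar, by -3.48 (SE 0.95). Acta2, the smooth muscle actin of myofibroblasts and of vessel walls, was the 1 higher gene, at 13.10 and 13.79 in Ctrl-MI and at 14.67 and 14.73 in TTg-MI (1.26, SE 0.26). When Ctrl-MI replicate 1 was left out Comp differed by -2.08 and the median of the list was -0.58. The median was -2.01 when Ctrl-MI replicate 2 was left out and -0.81 when TTg-MI replicate 2 was. In an unmoderated linear model 1 gene was at that level in either direction.

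Another 9 measured genes mostly encode proteins that bind ligands of the family outside the cell or cleave their matrix partners. Of these genes, 5 were lower and 0 higher at that level, with a median of -0.72. Htra3, a secreted protease, was at 11.40 and 11.48 in Ctrl-MI and at 10.70 and 10.89 in TTg-MI (-0.64, SE 0.16). Fstl1, a follistatin-like protein, differed by -0.72 (SE 0.19), Bgn (biglycan) by -1.45 (SE 0.48) and Fmod (fibromodulin) by -2.71 (SE 0.91). Bgn and Fmod differed by -0.82 and -1.25 without Ctrl-MI replicate 1, and Fmod by -4.17 without Ctrl-MI replicate 2. With Ctrl-MI replicate 1 left out the median was -0.45, and with TTg-MI replicate 2 left out it was -0.49. In an unmoderated linear model 1 gene was at an unadjusted p under 0.05.

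The activin and myostatin branch, whose ligands signal through the same Smad2 and Smad3 with other receptors, had 0 of 8 measured genes at that level and a median of 0.07. The receptor Acvr1b differed by -0.28 (SE 0.20) and the receptor Acvr2a by 0.25 (SE 0.21). The activin subunit gene Inhbb differed by 0.23 (SE 0.20) and the ligand gene Gdf11 by -0.15 (SE 0.17). Gdf11 lay under the lower quartile of 3 of the 4 arrays. The receptors Acvr2b and Acvr1c, named after their values were seen, lay under it on 3 and on all 4 arrays. At such low values a difference can be understated. With single arrays left out these differences ran from -0.50 to -0.06 for Acvr1b, from 0.01 to 0.49 for Acvr2a, from 0.0071 to 0.46 for Inhbb and from -0.26 to -0.04 for Gdf11. In an unmoderated linear model 1 gene of this branch was at an unadjusted p under 0.05.

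**Figure D3:**
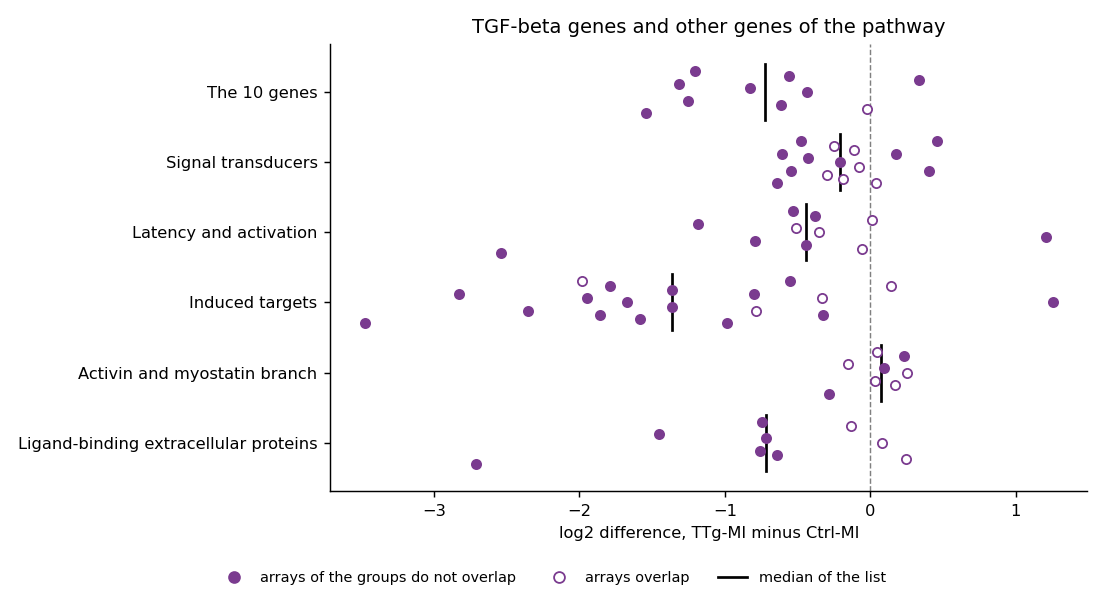
Log2 difference (TTg-MI minus Ctrl-MI) of the 10 genes and of each measured gene of the 5 pathway lists; filled points have groups whose arrays do not overlap, and black lines are list medians. The induced targets have the lowest median, -1.37, and the activin and myostatin branch lies around 0.

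Markers of other cell types were read on the same arrays. Over all probes, both TTg-MI hearts lay below both Ctrl-MI hearts for 18.7% and above them for 19.4%. In RNA from the whole heart, fewer cells of a type and less RNA per cell cannot be told apart. The muscle identity of the hearts was clear from ventricular markers such as Myl2, at 18.86 to 19.08 on the 4 arrays. For 11 of 11 measured fibroblast markers the TTg-MI hearts were both lower than either Ctrl-MI heart, and the list's mean level was 11.91 and 11.33 in Ctrl-MI against 10.78 and 10.22 in TTg-MI. For 6 of 7 macrophage markers the same held, with a mean level of 10.45 and 9.27 in Ctrl-MI against 8.93 and 8.23 in TTg-MI. The part of these cells in the differences of the TGF-beta genes was not tested.

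Atrial markers ran the other way or overlapped. Of 7, 3 had TTg-MI above and 0 below (19.4% and 18.7% of all probes), with a median difference of 2.75. They include Bmp10, a growth factor of atrial muscle and the 1 probe past limma over the whole array, at 5.31 and 5.39 in Ctrl-MI and 12.38 and 11.82 in TTg-MI (adjusted p = 0.00489). The list's mean level was 12.18 and 9.01 in Ctrl-MI and 13.56 and 12.53 in TTg-MI, so that Ctrl-MI replicate 2 stood apart.

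The ventricular list had 1 of 8 markers with TTg-MI below and 1 with TTg-MI above, and a mean level between 17.22 and 17.54. The endothelial list had 1 below and 2 above of 6, and the list of smooth muscle and pericytes 1 below and 2 above of 7. Of all probes, 18.7% lay below and 19.4% above. The 4 platelet markers had a mean of 8.91 on TTg-MI replicate 2 and of 7.08 to 7.20 on the other arrays. Of 6 T and B cell markers 3 were below and 1 above, with a mean level of 5.63 to 5.86, close to the lower quartiles. The 4 markers of valve and epicardium had a mean of 9.28 on Ctrl-MI replicate 1 and of 8.03 to 8.43 on the others.

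**Figure D4:**
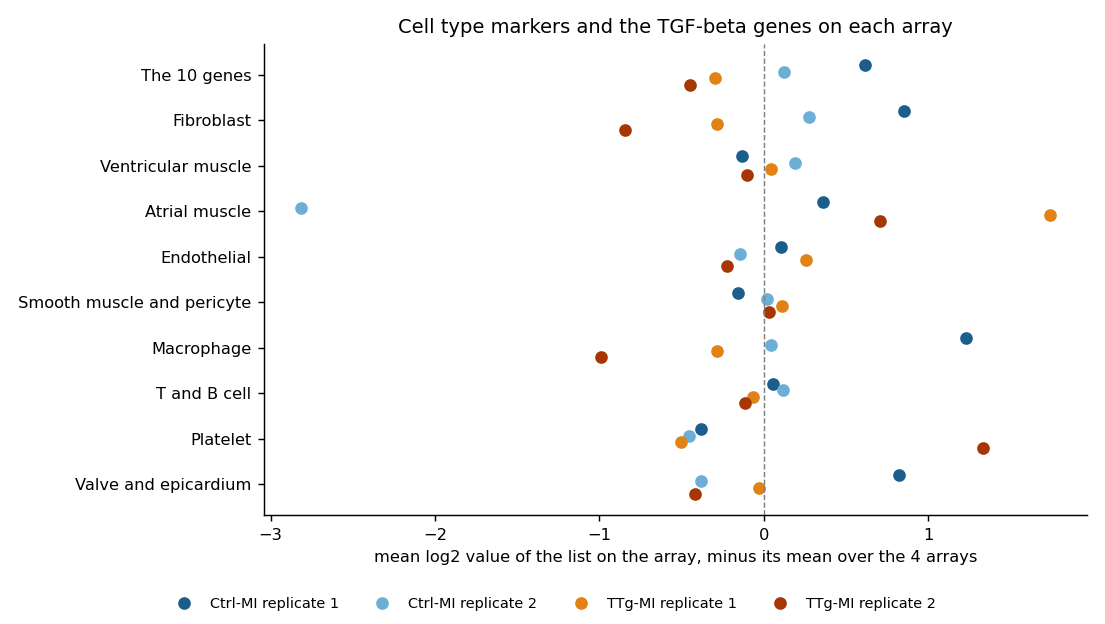
Mean log2 value of the 10 genes and of each marker list on each array, centred on its mean over the 4 arrays. The 10 genes, the fibroblast markers and the macrophage markers share an order, with Ctrl-MI replicate 1 highest and TTg-MI replicate 2 lowest. The valve and epicardium markers have the same highest and lowest array.

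The mean of the 11 fibroblast markers differed by -1.13. Tgfb2, Tgfb3, Ltbp2 and Skil had larger differences than that mean, by -0.41, -0.19, -0.13 and -0.08, and the other 6 genes lay above it, from 0.30 for Tgfbr1 to 1.46 for Ltbp1. Subtracting the marker mean on each array shifts every gene by the same amount, so that on this scale TTg-MI lay above Ctrl-MI without overlap for 93.9% of all probes and below for 0.261%. Of the 10 genes 5 lay above (Tgfb1, Tgfbr1, Tgfbr2, Ltbp1 and Smad7) and 1 below (Tgfb2). This scale describes only how far each gene lay from the markers, and was not tested.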

How the data were processed

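Hearts of 4 mice were measured on Clariom S Mouse arrays, 2 in each group, per the labels. The deposited values, which the authors made with Affymetrix Expression Console 1.4 according to the submitters' processing notes, were taken as log2 values. Their range, 4.22 to 19.93, is the basis for that log base. Normalization, annotation and build are not given in the sources used here. Array medians lay between 6.55 and 6.62, and correlations between arrays over probes between 0.977 and 0.991. Values were used as deposited, unfiltered. Number of arrays, not read depth, limits precision.

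Of 22206 probes, 19572 had 1 symbol in the platform annotation, 0 had several and 2634 were unnamed here. Each symbol was read by its probe with the highest mean. All probes were fitted together with limma 3.58.1 in R 4.3.3 (lmFit, eBayes, two-sided, 3.56 prior degrees of freedom on 2 residual ones), adjusted by Benjamini-Hochberg over all probes; the script was tested on simulated data. The members, lists and tests were chosen with earlier results of these data known. All 10 members are named, and up to 4 genes of each pathway list, by smallest unadjusted p. Alternatives were median centring, quantile normalization, leaving out dim probes, a trended robust prior, an ordinary linear model, a replicate block, leaving out each array, and averaging probes of a symbol. List genes that matched no named probe were not analysed here. Figures were drawn with matplotlib 3.10.9.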

Additional observations from a re-analysis of the deposited data

How the results depend on the processing

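Each of the 10 differences was recomputed under 11 alternatives, 110 values in all, of which 107 kept the sign of the reported difference. The 3 that did not were those of Tgfbr3, at 0.021 after quantile normalization, 0.33 with Ctrl-MI replicate 2 dropped and 0.23 with TTg-MI replicate 1 dropped. Filtering dim probes, the trended robust prior, the ordinary linear model, the replicate block and averaging probes leave these differences unchanged by construction. Dropping an array cannot turn the sign of a gene whose groups do not overlap. The count of kept signs was therefore largely fixed in advance. Over the 4 fits that dropped an array Tgfbr3 ran from -0.38 to 0.33. Past the adjusted threshold stood 2 of the 110, Tgfb2 and Skil without Ctrl-MI replicate 2. The probes called over the whole array numbered 4 with a trended robust prior, 0 in the ordinary linear model and 7 with the replicate block, and 1 to 332 when single arrays were dropped. Members at an unadjusted p under 0.05 numbered 1 in the ordinary linear model (2.78% of all probes lower) and 7 with the replicate block (6.52%). The hearts share only a replicate number: deviations of same-numbered arrays from their group means correlated at 0.16 across probes, and nothing in the labels pairs them. The count of members with TTg-MI below Ctrl-MI was 6 after quantile normalization (18.7% of all probes). With an array dropped it was 8 or 9, where 32.5% to 36.4% of all probes did the same because 1 group then has a single array, and it was 8 under the other alternatives. Where 1 array is left out, the spread comes from the group that keeps 2. The cause of these changes was not tested.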

Other observations

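Tgfb3 and Ltbp2 lie near each other on mouse chromosome 12 in the RefSeq gene order, with 20 other measured genes between them. Of these 20, 6 had both TTg-MI arrays below both Ctrl-MI arrays (30.0%, against 18.7% of all probes). Another 3 had both above, against 19.4% of all probes. At an unadjusted limma p under 0.05 there were 2 lower and 1 higher, where 5.07% of all probes were lower and 3.18% higher. The median difference of the 20 was -0.01.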
